A study of Callithrix jacchus with 20 samples.

Results

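The BMP response genes described here are ID1, ID2, ID3, ID4, SMAD6, SMAD9, BAMBI, MSX1 and MSX2, a set of 9 known transcriptional targets of bone morphogenetic protein (BMP) signalling. They were taken by gene symbol from a count table of 25102 genes, all 9 were found, and all 9 passed the filter on low counts that left 15797 genes.

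BMP ligands bind type I and type II receptors at the cell surface, which phosphorylate the receptor SMADs SMAD1, SMAD5 and SMAD9. These enter the nucleus with SMAD4 and switch on target genes, among them ID genes, whose products bind E proteins and keep them from DNA, and the homeobox genes MSX1 and MSX2. The same signal also induces its own inhibitors, such as SMAD6, which blocks the receptor and its SMADs inside the cell, and BAMBI, a receptor-like membrane protein without a kinase domain. In mammals BMP signalling is required to specify primordial germ cells, and BMP4 is the inducer in most protocols that make primordial germ cell-like cells (PGCLCs).

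RNA-seq was performed on the common marmoset (Callithrix jacchus) induced pluripotent stem cell (cjiPSC) line DPZ_cjiPSC2, in 10 conditions with 2 libraries each. The cjiPSCs were cultured in TESR medium or in cjPSCM, the marmoset pluripotent stem cell medium of the study. Precursors of mesendoderm (pre-ME) were induced from both cultures for 24 h with 3 μM CHIR, an inhibitor of GSK3, either with 100 ng/ml Activin A (pre-ME + ActA) or without it (pre-ME − ActA). Pre-ME from cjPSCM cultures were then aggregated into embryoid bodies in medium with EGF (50 ng/ml), SCF (100 ng/ml), LIF (10 ng/ml) and BMP4 (500 ng/ml), and on day 4 they were sorted into a double-positive fraction, called cjPGCLCs, and a double-negative fraction, called somatic cells. The labels name the sort markers as INTα6 and EpCAM in one place and as CXCR4 and EpCAM in another, while the series design names CXCR4 and INTα6. All libraries came from 1 line, no embryoid bodies from TESR cultures were analysed here, and no day 4 cells without BMP4 were analysed here.

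Reads counted on genes ranged from 4784964 to 22067099 per library, with a median of 11599813. Sort markers followed the labels: CXCR4, ITGA6 and EPCAM summed to 2953 to 5248 normalised counts in cjPGCLCs and to 350 to 434 in somatic cells. All 7 PGC markers listed (SOX17, TFAP2C, PRDM1, NANOS3, NANOG, POU5F1 and DPPA3) had reads in cjPGCLCs, and NANOS3 and DPPA3 had 3 reads or fewer in every somatic library. All 7 also had reads in cjiPSCs in cjPSCM and in the pre-ME from them. Their sum was 5473 to 6314 normalised counts in cjiPSCs in cjPSCM. In cjPGCLCs it was 2856 to 3178 with ActA and 4175 to 4290 without, so the sum does not set cjPGCLCs apart from cjiPSCs. TBXT, EOMES and MIXL1, markers of mesendoderm, summed to 33.7 to 60.1 normalised counts in cjPSCM-derived pre-ME + ActA, 9.91 to 13.6 in pre-ME − ActA and 7.41 to 15.1 in cjiPSCs in cjPSCM, with TBXT at 3 reads or fewer in all 6 of these libraries. They summed to 394 to 784 and 156 to 193 in TESR-derived pre-ME with and without ActA and to 338 to 550 in cjiPSCs in TESR, and without ActA the pre-ME sums were not above those of the cjiPSCs in the same medium. The replicates of cjiPSCs in cjPSCM lay farthest apart, with an SD of 0.959 for their log2 difference across genes against 0.311 to 0.619 in the other conditions. Levels below are the deposited normalised counts (count divided by the size factor of the library), which do not account for gene length, so levels are compared between conditions of 1 gene and not between genes.

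The 9 BMP response genes together took up 0.204% to 0.24% of gene reads in the 8 day 4 libraries, 0.0444% to 0.0787% in the 8 pre-ME libraries and 0.0453% to 0.0883% in the 4 cjiPSC libraries. No library from before day 4 reached the lowest day 4 library, in either fraction and with either pre-ME. In bulk RNA a change in the share of expressing cells and a change in RNA per cell cannot be told apart.

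**Figure D1:**
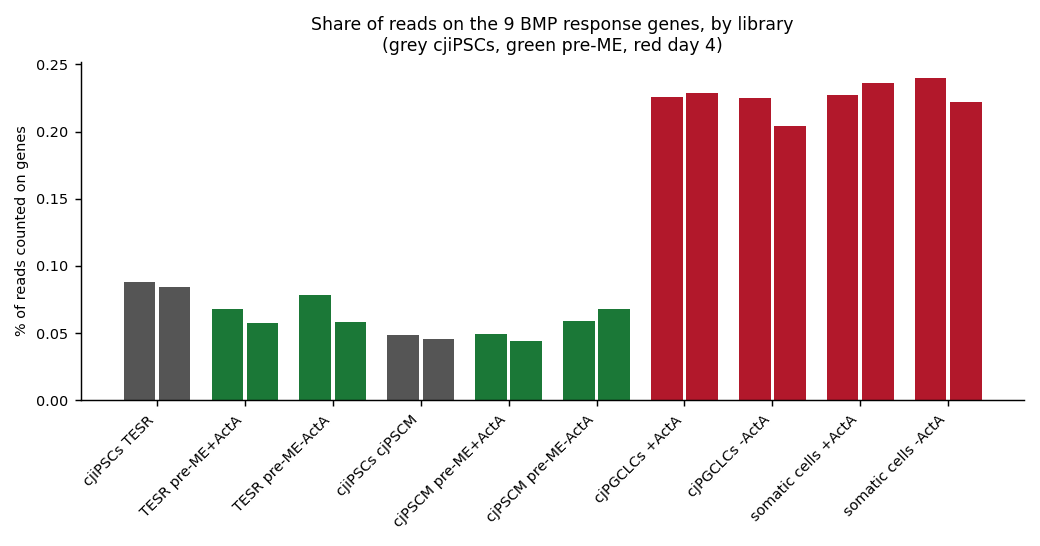
Percentage of gene reads that fell on the 9 BMP response genes (y axis) in each library, with 2 bars per condition (grey, cjiPSCs; green, pre-ME; red, day 4). The 8 day 4 bars lie between 0.204% and 0.24%, and no other bar is above 0.0883%.

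The first question was how the set changed from pre-ME to day 4, after culture with BMP4. In cjPGCLCs from pre-ME + ActA, 9 of 9 members rose, where 25.3% of all tested genes were called higher and 23.0% lower at an adjusted p under 0.05 (edgeR quasi-likelihood test). In cjPGCLCs from pre-ME − ActA, 8 of 9 rose, against 21.5% of tested genes higher and 18.5% lower. Past the study's own thresholds, which also ask for a log2 fold change beyond 2, 5 of 9 members were higher in each comparison, against 6.15% and 5.77% of tested genes. The median log2 fold change of the members was 2.43 with ActA and 2.41 without, while over all tested genes it was 0.039 and 0.014. The somatic fraction gave 9 of 9 members higher with ActA (23.8% of genes higher, 24.2% lower) and 8 of 9 without (20.6% higher, 21.7% lower). Past both thresholds, 6 and 5 members were higher in somatic cells, against 5.29% and 4.99% of tested genes. Both fractions were compared with the same pre-ME libraries, so their counts are not independent of each other. Aggregation, LIF, SCF, EGF, 4 days of culture and the sort changed at the same step. CHIR ended there too, and so did ActA in the + ActA arm. The parts of all these cannot be told apart from that of BMP4.

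The pathway's own components, SMAD6, SMAD9 and BAMBI, rose several-fold. SMAD6 was at 381 and 305 normalised counts in pre-ME + ActA of cjPSCM and at 124 and 125 in pre-ME − ActA. On day 4 it reached 4786 and 4184 in cjPGCLCs + ActA, 4645 and 3753 in cjPGCLCs − ActA, 3828 and 3506 in somatic cells + ActA, and 3607 and 3470 in somatic cells − ActA. All 8 day 4 libraries were above all 4 pre-ME libraries. The log2 fold change in cjPGCLCs was 3.70 ± 0.258 (SE; adjusted p = 2.18e-08) with ActA and 5.06 ± 0.278 (adjusted p = 1.28e-09) without, that is 13.0-fold and 33.4-fold.

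SMAD9, the third of the receptor SMADs of the BMP branch and itself a BMP target, was at 115 and 118 in pre-ME + ActA and at 63.7 and 87.2 in pre-ME − ActA. It lay between 1461 and 1776 normalised counts in the 8 day 4 libraries, with no overlap with pre-ME. Its log2 fold change in cjPGCLCs was 3.77 ± 0.197 (adjusted p = 8.97e-10) with ActA and 4.35 ± 0.202 (adjusted p = 1.66e-10) without, and in somatic cells it was 3.71 and 4.43.

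BAMBI was between 527 and 772 normalised counts in the 4 pre-ME libraries of cjPSCM and between 3912 and 5535 on day 4. It rose by 2.84 ± 0.292 on the log2 scale (adjusted p = 1.24e-06) in cjPGCLCs + ActA and by 2.67 ± 0.289 (adjusted p = 2.48e-06) in cjPGCLCs − ActA. In somatic cells the values were 2.89 and 3.04.

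The homeobox genes followed. MSX2 had few reads before day 4, with 5.62 to 14.9 normalised counts in the 4 pre-ME libraries, and 142 to 243 in the day 4 libraries. Its log2 fold change was 4.56 ± 0.422 (adjusted p = 4.35e-07) and 3.75 ± 0.387 (adjusted p = 1.55e-06) in cjPGCLCs with and without ActA. MSX1 was already expressed in pre-ME, at 632 and 395 with ActA and at 399 and 392 without, and rose by 2.43 ± 0.235 (adjusted p = 6.63e-07) and 2.41 ± 0.235 (adjusted p = 7.94e-07) in cjPGCLCs. In somatic cells MSX1 rose further from the same pre-ME, by 3.11 ± 0.240 with ActA and by 3.59 ± 0.245 without.

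The 4 ID genes, inhibitors of E proteins, had log2 fold changes from 0.55 to 2.00. ID1 was between 749 and 1051 normalised counts in the pre-ME libraries of cjPSCM and between 2050 and 2516 on day 4, and its 4 log2 fold changes lay between 1.15 and 1.37. ID2 went from 899 and 845 in pre-ME + ActA to 2790 and 3348 in cjPGCLCs, a log2 fold change of 1.82 ± 0.194 (adjusted p = 1.73e-06), and from 1494 and 1784 in pre-ME − ActA to 3288 and 3329, a log2 fold change of 1.00 ± 0.188 (adjusted p = 0.000495). The day 4 levels of ID2 with and without ActA overlapped, and the pre-ME levels did not.

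ID3 rose by 1.24 ± 0.201 and 0.98 ± 0.200 in cjPGCLCs and by 0.93 ± 0.201 and 0.55 ± 0.199 in somatic cells, with and without ActA. The smallest of these, in somatic cells − ActA (adjusted p = 0.0351), was no longer called without replicate 1 of cjPSCM pre-ME − ActA (0.39), without replicate 1 of somatic cells − ActA (0.52) or without replicate 2 (0.55). ID4 rose by 1.65 ± 0.366 (adjusted p = 0.00144) in cjPGCLCs + ActA and by 1.60 ± 0.368 (adjusted p = 0.0019) in somatic cells + ActA. From pre-ME − ActA its log2 fold changes were 0.87 ± 0.352 (adjusted p = 0.0594) in cjPGCLCs and 0.62 ± 0.357 (adjusted p = 0.178) in somatic cells, and neither passed the test.

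**Figure D2:**
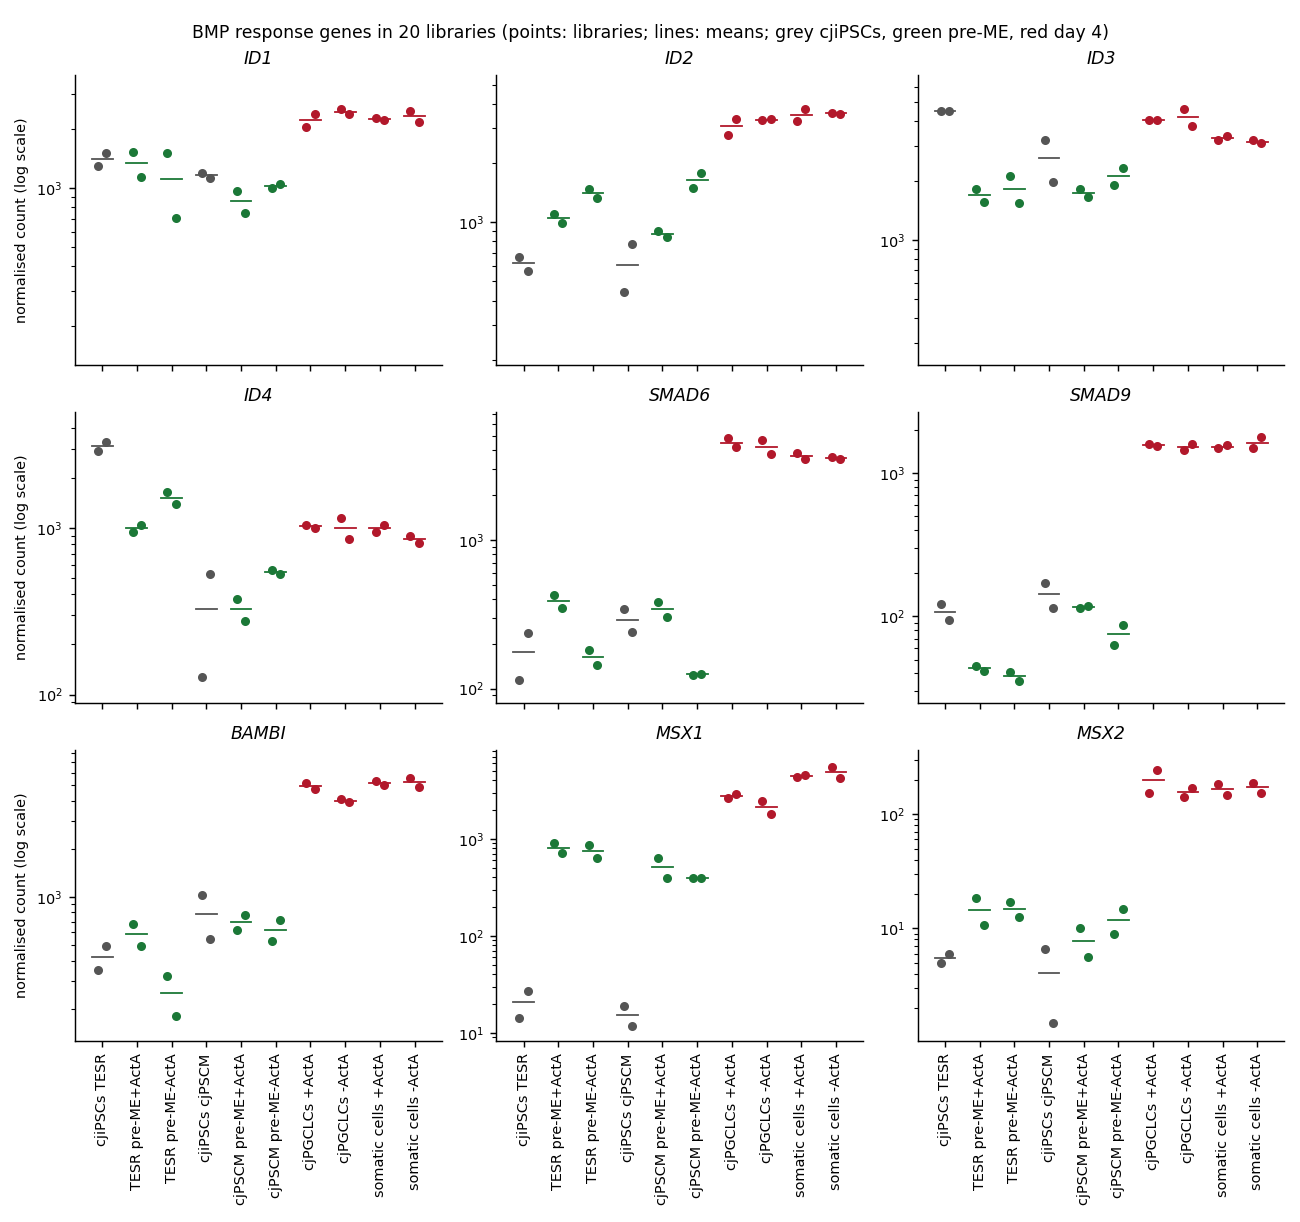
Normalised counts (log y axis, own range for each gene) of the 9 genes in 10 conditions; points are libraries and lines are means of 2 (grey, cjiPSCs; green, pre-ME; red, day 4). For ID1, ID2, SMAD6, SMAD9, BAMBI, MSX1 and MSX2 the red points lie above all others, whereas for ID3 and ID4 the cjiPSCs in TESR are near or above the day 4 cells.

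The second question was whether sorting on day 4 separated the set. In the fit over all 20 libraries it did so for 1 gene. With ActA, 0 of 9 members differed between cjPGCLCs and somatic cells by edgeR and 0 by DESeq2, with 1 member at an unadjusted p under 0.05, while 3.68% of tested genes were higher in cjPGCLCs and 1.16% lower. Without ActA, 1 of 9 members was lower in cjPGCLCs, where 2.96% of tested genes were lower and 6.67% higher. Both counts of members were higher in fits of only the libraries of each comparison, as given at the end. In those fits 1771 of 13838 tested genes with ActA and 2636 of 13786 without were called in either direction. The count with ActA was also higher without a filter on low counts.

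The gene called in the fit over all 20 libraries was MSX1. It was at 2427 and 1808 normalised counts in cjPGCLCs − ActA and at 5486 and 4244 in somatic cells − ActA, without overlap, and was lower in cjPGCLCs with a log2 fold change of -1.18 ± 0.222 (adjusted p = 0.00221). With ActA the levels were 2635 and 2912 in cjPGCLCs and 4365 and 4592 in somatic cells, again without overlap, and the log2 fold change of -0.68 ± 0.220 did not pass the test (adjusted p = 0.0952). The difference between these 2 effects was 0.50 (95% CI -0.16 to 1.15, adjusted p = 1), so the sort effect on MSX1 was not shown to depend on ActA. For the test of that difference, 0.0633% of tested genes were called in either direction and 0 of 9 members, with 0 at an unadjusted p under 0.05 and 0 by DESeq2.

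For the other 8 members the log2 fold change between the fractions − ActA lay between -0.36 (BAMBI) and 0.43 (ID3), and the widest 95% CI bounds were -0.94 and 1.00. These intervals leave room for differences of up to about 1 on the log2 scale, so equal levels were not shown. ID3, at 4609 and 3793 in cjPGCLCs − ActA and at 3206 and 3099 in somatic cells − ActA, did not overlap between the fractions (adjusted p = 0.218), nor did SMAD6 (4645 and 3753 against 3607 and 3470; adjusted p = 0.587). BAMBI (4093 and 3912 against 5535 and 4895; adjusted p = 0.512) and ID2 (3288 and 3329 against 3581 and 3557; adjusted p = 0.859) were without overlap too, with the lower levels in cjPGCLCs. With ActA, ID3 (adjusted p = 0.519) and SMAD6 (adjusted p = 0.625) were again higher in cjPGCLCs without overlap, whereas BAMBI and ID2 overlapped. The share of all tested genes without overlap is not given here, so no difference is read from these gaps.

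Some markers of other cell types differed between the same fractions. FOXA2, a transcription factor of endoderm, was at 192 and 83.9 normalised counts in cjPGCLCs + ActA and at 0 in both libraries of somatic cells + ActA. Without ActA it was at 518 and 356 in cjPGCLCs and at 4.61 and 0 in somatic cells, and it was higher in cjPGCLCs in both comparisons (adjusted p = 6.48e-05 and 3.26e-06). FOXA1, another endoderm factor, was at 0 in both libraries of somatic cells − ActA. Of 3 endothelial markers, 0 were higher and 1 lower in cjPGCLCs + ActA and 1 was higher and 1 lower in cjPGCLCs − ActA, and their summed level was 3980 to 4125 against 5133 to 5138 with ActA and 4143 to 4241 against 3895 to 5034 without. The endothelial sum was 7366 to 8908 in cjiPSCs in TESR and 14060 to 29830 in cjiPSCs in cjPSCM, above every day 4 library. Of 3 neural markers 2 were tested, and 0 were called with ActA and 1 was lower in cjPGCLCs without. The neural sum was 13720 to 17850 in cjPGCLCs against 24730 to 27020 in somatic cells with ActA, and 10680 to 12820 against 21010 to 23290 without. The 3 were PAX6, SOX1 and NES, and SOX1 had 3 reads or fewer in every day 4 library. PAX6 did too in somatic cells + ActA and cjPGCLCs − ActA, so there the sum was nearly all NES. In cjiPSCs the neural sum was 15790 to 30650 in TESR and 19720 to 22080 in cjPSCM. The part of these markers in the MSX1 difference was not tested. Of 5 markers of amnion-like cells 4 were in the table, and their summed level overlapped between the fractions, 4197 to 5127 in cjPGCLCs and 4055 to 4894 in somatic cells, against 170 to 497 in the pre-ME libraries of cjPSCM. This sum was 390 to 467 in cjiPSCs in cjPSCM but 2007 to 2541 in cjiPSCs in TESR. In TESR-derived pre-ME it was 1340 to 1344 with ActA and 442 to 455 without. Between the fractions 0 of the 4 were called with ActA, and 1 was higher in cjPGCLCs without. 1 of the 4, ISL1, is also in a list of BMP-induced genes below. All 4 rose from pre-ME to day 4 in both fractions, with and without ActA, and their part in the rise of the BMP response genes was not tested.

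**Figure D3:**
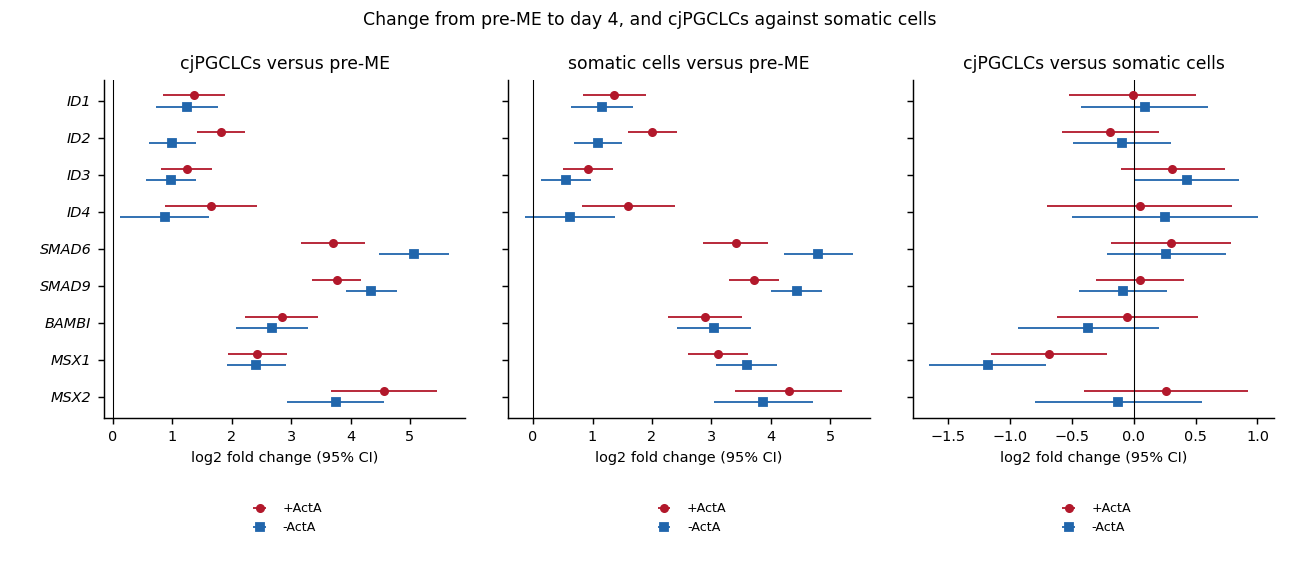
Log2 fold changes (x axis, with 95% CI; the range of the axis differs between panels) of the 9 genes from cjPSCM-derived pre-ME to cjPGCLCs, from pre-ME to somatic cells, and between the fractions on day 4, with ActA (red circles) and without (blue squares). In the left and middle panels all points lie above 0, from 0.55 to 5.06, whereas on the right only MSX1 − ActA, at -1.18, passed the test.

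The third question was what ActA, given for 24 h before BMP4, did to the set. In pre-ME it raised SMAD6 in both media. In TESR-derived cells SMAD6 was at 425 and 350 normalised counts with ActA and at 181 and 144 without (log2 fold change 1.26 ± 0.243, adjusted p = 0.00279), and in cjPSCM-derived cells the values were 381 and 305 against 124 and 125 (1.45 ± 0.259, adjusted p = 0.00128). In TESR-derived cells 2 of 9 members rose and 0 fell, against 5.63% of tested genes higher and 3.20% lower. In cjPSCM-derived cells 2 rose and 1 fell, against 11.4% higher and 9.54% lower.

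The other call in TESR-derived pre-ME was BAMBI, at 673 and 495 with ActA and 319 and 180 without (1.23 ± 0.283, adjusted p = 0.00981). Without replicate 2 of TESR pre-ME − ActA neither SMAD6 (1.10) nor BAMBI (0.87) was called, and BAMBI was also lost without replicate 1 of TESR pre-ME + ActA (0.99). In cjPSCM-derived pre-ME BAMBI overlapped between the groups, at 617 and 772 with ActA and 527 and 719 without.

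In cjPSCM-derived pre-ME ID2 fell with ActA, from 1494 and 1784 to 899 and 845 (log2 fold change -0.93 ± 0.190, adjusted p = 0.00356). In TESR-derived pre-ME ID2 was at 1107 and 991 with ActA and at 1475 and 1333 without (-0.42 ± 0.186, adjusted p = 0.215). SMAD9 rose with ActA in cjPSCM-derived cells (0.63 ± 0.208, adjusted p = 0.0411), a call that was lost without any 1 of the 4 libraries, that is without replicate 1 (0.64) or 2 (0.62) of pre-ME + ActA and without replicate 1 (0.38) or 2 (0.84) of pre-ME − ActA. No member passed the test of a difference in ActA effect between the media, with 0 of 9 by edgeR and 0 by DESeq2, where 0.399% of tested genes did in either direction, and 1 was at an unadjusted p under 0.05. That was BAMBI, with a difference of -1.09 (95% CI -1.93 to -0.25, adjusted p = 0.189).

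On day 4 no effect of ActA on the set was detected. In cjPGCLCs 0 of 9 members differed with against without ActA by edgeR or DESeq2 (2.53% of tested genes in either direction, 0 members at an unadjusted p under 0.05). In somatic cells it was also 0 of 9 by both tools (0.0253% of tested genes, 0 members at an unadjusted p under 0.05). The log2 fold changes lay between -0.15 and 0.38 in cjPGCLCs and between -0.11 and 0.22 in somatic cells, and the 95% CIs reached from -0.73 to 0.99. For SMAD6, which differed 2.73-fold between the pre-ME groups of cjPSCM, the log2 fold change with against without ActA was 0.09 (95% CI -0.39 to 0.57) in cjPGCLCs and 0.06 (95% CI -0.43 to 0.54) in somatic cells.

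In the step from cjiPSCs to pre-ME, induced without added BMP4, members went both ways, except in cjPSCM-derived pre-ME + ActA, where none fell. Reads without a feature made up 10.6% and 13.3% in cjiPSCs in TESR against 19.3% to 20.6% in TESR-derived pre-ME, and 12.2% and 19.3% in cjiPSCs in cjPSCM against 17.2% to 20.5% in the pre-ME from them, and their part in these changes was not tested. MSX1 was the one member that rose in all 4 inductions. It was at 14.3 and 26.8 normalised counts in cjiPSCs in TESR and at 18.8 and 11.9 in cjPSCM, and between 392 and 897 in the 8 pre-ME libraries, with log2 fold changes from 4.65 ± 0.340 to 5.46 ± 0.319 (adjusted p between 6.82e-09 and 1.39e-07).

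In TESR-derived pre-ME + ActA 4 members rose and 3 fell, against 17.3% of tested genes higher and 17.1% lower, and in pre-ME − ActA 3 rose and 3 fell, against 17.4% and 19.2%. ID2 and MSX2 rose and ID3, ID4 and SMAD9 fell in both. ID3 went from 4487 and 4512 to 1807 and 1560 with ActA (-1.41 ± 0.201, adjusted p = 6.85e-05) and to 2105 and 1539 without (-1.29 ± 0.200, adjusted p = 0.000133). SMAD9 went from 122 and 93.8 to 45.4 and 41.4 (-1.34 ± 0.208, adjusted p = 0.000147) and to 41.1 and 35.6 (-1.52 ± 0.210, adjusted p = 4.79e-05). SMAD6 rose with ActA (1.22 ± 0.253, adjusted p = 0.00156), and without ActA its log2 fold change was -0.04 (adjusted p = 0.923). ID4 fell by 1.63 ± 0.350 with ActA and by 1.02 ± 0.344 without.

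Some of these calls rested on single libraries. MSX2, at 4.96 and 5.96 in cjiPSCs and 18.6 and 10.6 in pre-ME + ActA (1.46 ± 0.504, adjusted p = 0.0343), was not called without replicate 1 (1.31) or 2 (1.53) of cjiPSCs in TESR or without replicate 1 of pre-ME + ActA (1.00). In pre-ME − ActA (1.47 ± 0.501, adjusted p = 0.0299) it was lost without replicate 1 (1.32) or 2 (1.54) of cjiPSCs or replicate 1 of pre-ME − ActA (1.24). ID4 in pre-ME − ActA was lost without any 1 of the 4 libraries, with log2 fold changes of -1.10 and -0.95 without replicates 1 and 2 of cjiPSCs and -1.15 and -0.92 without replicates 1 and 2 of pre-ME, and DESeq2 did not call it either (-1.03).

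In cjPSCM-derived pre-ME + ActA MSX1 was the 1 member that rose and none fell, against 7.42% of tested genes higher and 10.3% lower. ID2 (0.55 ± 0.194, adjusted p = 0.0606) and ID3 (-0.58 ± 0.200, adjusted p = 0.0533) were near the threshold, and the count was 2 without replicate 1 and 5 without replicate 2 of cjiPSCs in cjPSCM. In pre-ME − ActA 2 rose and 2 fell, against 17.9% and 20.1%. ID2 rose by 1.48 ± 0.194 (adjusted p = 3.52e-05), SMAD6 fell by 1.20 ± 0.261 (adjusted p = 0.00204) and SMAD9 fell by 0.93 ± 0.205 (adjusted p = 0.00235). The SMAD9 call was lost without replicate 1 of cjiPSCs in cjPSCM (-0.58) or replicate 1 of pre-ME − ActA (-0.68), and the count of members was 7 without replicate 2 of cjiPSCs in cjPSCM. With the libraries of the comparison only, the count was 2, so not all of these calls were kept there.

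**Figure D4:**
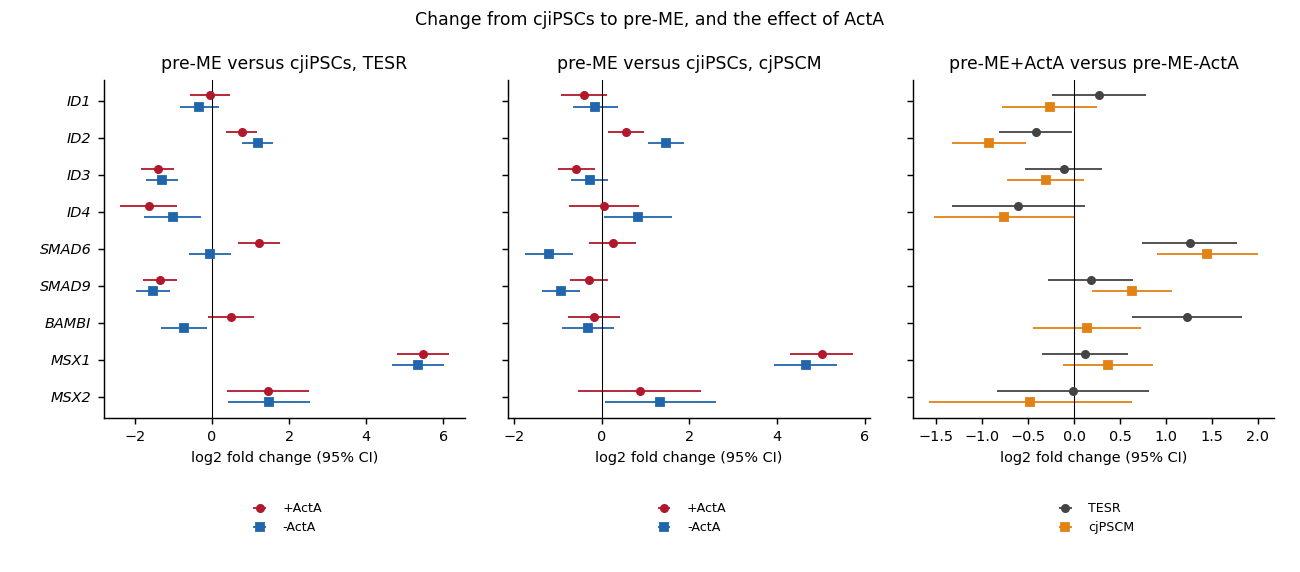
Log2 fold changes (x axis, with 95% CI; the range of the axis differs between panels) from cjiPSCs to pre-ME in TESR and in cjPSCM, with ActA (red circles) and without (blue squares), and of pre-ME with against without ActA in TESR (black circles) and cjPSCM (orange squares). MSX1 lies between 4.65 and 5.46 in the left and middle panels, and on the right SMAD6, at 1.26 and 1.45, is the member raised by ActA in both media.

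Before induction, cjiPSCs in cjPSCM were compared with those in TESR. In cjPSCM 2 members were higher and 2 lower, near the 18.1% of tested genes in each direction. With the 4 libraries of the comparison only, 1 member was called, so at most 1 of the 4 calls named below was kept there. ID4 was at 127 and 531 normalised counts in cjPSCM and at 2921 and 3324 in TESR, which did not overlap (log2 fold change -3.31 ± 0.384, adjusted p = 4.79e-06). The cjPSCM replicates of ID4 lay far apart from each other, as did those libraries across all genes. ID3 was lower in cjPSCM as well, at 3232 and 1972 against 4487 and 4512 (-0.81 ± 0.199, adjusted p = 0.00458). SMAD6 (0.79 ± 0.261, adjusted p = 0.0262) and BAMBI (0.91 ± 0.285, adjusted p = 0.0199) were higher. Both were lost without replicate 1 of cjiPSCs in TESR (0.30 and 0.69) and without replicate 1 of cjiPSCs in cjPSCM (0.49 and 0.36).

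In pre-ME the medium difference of ID4 had the same direction. In pre-ME + ActA, ID4 (-1.62 ± 0.363, adjusted p = 0.00388) and MSX1 (-0.66 ± 0.226, adjusted p = 0.0399) were lower in cjPSCM-derived cells and SMAD9 was higher (1.41 ± 0.211, adjusted p = 0.000163), against 13.2% of tested genes higher and 14.2% lower. In pre-ME − ActA, ID4 (-1.47 ± 0.352) and MSX1 (-0.91 ± 0.227) were lower and SMAD9 (0.96 ± 0.215) and BAMBI (1.32 ± 0.285) higher, against 8.08% and 5.96%. The count of 3 in pre-ME + ActA was 1 without replicate 2 of cjPSCM pre-ME + ActA. The MSX1 call there was also lost without replicate 1 (-0.49) or 2 (-0.81) of TESR pre-ME + ActA. The count of 4 in pre-ME − ActA was 0 without replicate 2 of cjPSCM pre-ME − ActA and 2 without any other 1 of the 4 libraries (replicate 1 of cjPSCM pre-ME − ActA, or replicate 1 or 2 of TESR pre-ME − ActA).

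Ordered by mean level over the 10 conditions, the members fell into different patterns. For ID1, ID2, SMAD6, SMAD9, BAMBI, MSX1 and MSX2 the 4 day 4 conditions held the top 4 ranks. The share of all tested genes with this order is not given here, so no result about the set is read from it. For ID3 and ID4 the highest mean was in cjiPSCs in TESR, with 4500 ± 17.2 and 3122 ± 285 normalised counts (SD, n = 2). In the order of ID3 this overlapped the next condition, cjPGCLCs − ActA, and in that of ID4 it did not overlap the next, TESR pre-ME − ActA (1523 ± 169). Within day 4, neighbours in the order overlapped for ID1, ID2, SMAD6, SMAD9 and MSX2, that is each condition overlapped the next one down, whereas conditions further apart did not always overlap (SMAD6 in both groups of cjPGCLCs against somatic cells of the same ActA arm, ID2 in cjPGCLCs − ActA against somatic cells − ActA). For BAMBI, cjPGCLCs − ActA (4002 ± 128) stood below the other 3 day 4 conditions, which overlapped, and for MSX1 both groups of somatic cells (4865 ± 879 and 4478 ± 160) stood above cjPGCLCs + ActA (2774 ± 196), which stood above cjPGCLCs − ActA (2117 ± 438). The highest mean was 317-fold the lowest for MSX1, 48.9-fold for MSX2, 42.6-fold for SMAD9, 36-fold for SMAD6 and 20.9-fold for BAMBI, but 9.61-fold for ID4, 5.85-fold for ID2, 2.84-fold for ID1 and 2.67-fold for ID3.

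Across the 10 condition means (log2 of the normalised count plus 1), SMAD6, SMAD9 and BAMBI ran closely together, with Pearson r between 0.95 and 0.975 for the 3 pairs. ID2 and MSX2 had r = 0.964, whereas ID4 had r between -0.043 and 0.463 with the other 8. The points share the 2 libraries of each condition, and the day 4 conditions form 1 cluster. Among 4085 other named genes that varied by at least 2 on the log2 scale, the most similar were RUNX1T1 to BAMBI (r = 0.992), TSPAN11 to MSX2 (0.992), SAMD11 to SMAD6 (0.991), PPFIA4 to MSX1 (0.991), TET2 to SMAD9 (0.99) and TMEM123 to ID2 (0.99). Among 4086, CCNG2 was the most similar to ID1 (0.983) and PIK3IP1 to ID3 (0.973), and RIMS1 to ID4 (0.957, among 4085).

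The rest of the pathway was counted from lists of ligands, receptors, intracellular regulators, antagonists and other BMP-induced transcription factors. The shares of all tested genes given above were 25.3% higher and 23.0% lower with ActA, and 21.5% and 18.5% without. Beside them, the shares that rose from pre-ME to cjPGCLCs were larger in each of these lists, for ligands by few genes. The shares that fell lay on both sides, and no test of the lists as sets was run. From pre-ME to cjPGCLCs, 3 of 8 tested BMP ligands (of 14 listed, 12 in the table) rose and 3 fell with ActA, and 4 rose and 2 fell without. Of 11 receptors and co-receptors, 7 rose and 2 fell with ActA and 6 and 3 without. Of 12 SMADs and intracellular regulators, 5 rose and 1 fell with ActA and 7 and 0 without, with a median log2 fold change of 0.32 and 0.41. Of 13 tested antagonists, 8 rose and 2 fell with ActA and 7 and 1 without. Of 9 tested transcription factors of the other BMP-induced list, 7 rose with ActA and 9 without and 0 fell, with medians of 3.24 and 3.21. In somatic cells 7 of these 9 rose and 1 fell with ActA, and 8 rose and 0 fell without, with medians of 3.74 and 3.29. Of the E protein genes TCF3, TCF4 and TCF12, whose products ID proteins bind, TCF4 rose in cjPGCLCs with (1.04, adjusted p = 4e-05) and without ActA (0.89, adjusted p = 0.000227), and TCF3 fell with ActA (-1.02, adjusted p = 0.00085). Among these 3, 1 rose and 1 fell in somatic cells with ActA, and 1 rose and 0 fell without. Between the fractions 0 of the 3 were called in either ActA arm.

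With ActA in pre-ME, the inhibitory SMAD7, which acts on both the Activin and the BMP branch, rose together with SMAD6. SMAD7 was at 715 and 771 normalised counts with ActA and 161 and 124 without in TESR-derived cells (2.38 ± 0.210, adjusted p = 1.97e-06) and at 847 and 638 against 120 and 134 in cjPSCM-derived cells (2.54 ± 0.218, adjusted p = 1.33e-06). FSTL3, which binds Activin, rose in both media (2.14 and 2.13), and NOG, an antagonist that binds BMPs, rose by more than 2 on the log2 scale in cjPSCM-derived cells (2.02). Altogether 5 of 13 tested antagonists rose in TESR-derived and 4 in cjPSCM-derived pre-ME, and 0 and 1 fell, beside 5.63% and 11.4% of tested genes higher and 3.20% and 9.54% lower. In TESR-derived pre-ME the ligand genes BMP4 (2.07) and GDF7 (2.16), the SMAD co-repressor SKIL (2.84), BMPER (2.36), VWC2 (2.66) and the transcription factors HAND1 (2.72) and ISL1 (2.10) also rose past both thresholds. In the test of a difference in ActA effect between the media, 0 genes were called in each of these lists, against 0.399% of tested genes. A dependence of these responses on the medium was therefore not shown. TFAP2A, a BMP-induced transcription factor, fell in TESR-derived (-2.01, adjusted p = 0.00932) and cjPSCM-derived cells (-3.24, adjusted p = 0.00026).

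Between the day 4 fractions the antagonist GREM1 differed in the direction of MSX1. It was at 70.2 and 183 in cjPGCLCs + ActA against 487 and 717 in somatic cells + ActA (-2.29 ± 0.449, adjusted p = 0.00579), and at 147 and 180 against 632 and 840 − ActA (-2.17 ± 0.440, adjusted p = 0.0038). Without ActA the ligand BMP2 (3.59 ± 0.669, adjusted p = 0.00201), the antagonist CHRD (2.17 ± 0.273, adjusted p = 5.87e-05) and the transcription factors GATA2 (2.20 ± 0.220, adjusted p = 6.97e-06) and TBX3 (2.50 ± 0.267, adjusted p = 1.22e-05) were higher in cjPGCLCs. With ActA GATA2 (1.37, adjusted p = 0.00102) and TBX3 (1.62, adjusted p = 0.00161) were higher as well, so that 2 of the 9 BMP-induced transcription factors were higher and 1 lower in cjPGCLCs in each ActA arm.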

How the data were processed

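RNA-seq of 20 libraries was analysed from a table of raw counts per gene and a table of normalised values. The authors mapped paired-end reads to calJac4 with STAR (2.7.0a), after FastQC (0.11.8), and counted reads per gene with HTSeq (0.11). The second deposited table holds signal values, that is the counts divided by size factors of DESeq2. The strand setting of the counting is not given in the sources used here; no gene of the RefSeq table overlapped a member, by an assembly other than calJac4. RNA was isolated with one of several kits, and which library used which is not given in the sources used here. Reads without a feature (10.6% to 23.2%) stayed out.

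Counts were tested with edgeR (4.0.16; R 4.3.3), TMM scaling and the filterByExpr filter by condition, with 1 coefficient per condition over all 20 libraries (10 residual degrees of freedom, common dispersion 0.0203) and a quasi-likelihood F-test. P-values were adjusted by Benjamini-Hochberg over 15797 genes in each of 19 comparisons, and a change was called at 0.05. The labels call replicates biological without naming separate cultures, so p-values measure the spread between these libraries. DESeq2 (1.42.0), its size factors, no filter, a filter on a mean of 1 CPM, the libraries of the comparison only, a replicate block and leaving out each library were the alternatives.

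The 9 members and all lists were chosen with earlier results of these data known. Text names all members, list genes past both thresholds (0.05, and 2 on the log2 scale) between the day 4 fractions or with ActA in pre-ME, and the most similar gene of each member (the rule took 3). TCF3 and TCF4, and the marker genes, are named outside this rule, after their values were seen. Some genes that the rule or the lists take in are not reported here. A planned search of promoters for SMAD motifs was not run, because no promoter sequence was used here. Figures were drawn with matplotlib (3.10.9).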

Additional observations from a re-analysis of the deposited data

How the results depend on the processing

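None of the 69 calls of single members changed sign under any alternative, and 51 passed in all of them. From pre-ME to day 4, 33 of 34 calls passed in all, the exception being ID3 in somatic cells − ActA. The count of members changed from pre-ME + ActA against cjiPSCs in cjPSCM, 1, was 3 with DESeq2, 2 with its size factors, 2 with a mean of at least 1 CPM, 3 without a filter, and 1 to 5 when 1 library was left out. With the 4 libraries of the comparison only, the counts were 1 (4) for cjiPSCs in cjPSCM against TESR, 2 (4) for cjPSCM pre-ME − ActA against cjiPSCs, 4 (2) for ActA in TESR-derived pre-ME, 5 (3) for pre-ME + ActA of cjPSCM against TESR, and 2 (0) and 3 (1) for cjPGCLCs against somatic cells + ActA and − ActA, the reported counts in parentheses. Without a filter, 1 member in place of 0 passed for cjPGCLCs against somatic cells + ActA and for the media difference of the ActA effect. With 1 library left out, the counts ranged from 2 to 6 for cjiPSCs in cjPSCM against TESR, 3 to 7 for cjPSCM pre-ME − ActA against cjiPSCs, 0 to 3 for ActA in TESR-derived pre-ME, and 1 to 3 and 0 to 2 for the medium in pre-ME + ActA and − ActA. The causes of these differences in count were not tested, the fewer libraries of some of these fits included.

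Replicate numbers were shared across conditions, but the labels do not say that a number marks a batch, and the correlation of same-numbered deviations lay between -0.193 and 0.234. With the replicate block, the count for cjPSCM pre-ME + ActA against cjiPSCs was 2 in place of 1, and every other count was within 1.5 times the reported one. Under TMM-scaled CPM the order of conditions moved for ID4 (6 conditions, by up to 3 ranks), ID1 and ID3 (2 each, by 1), and for no other member. With a pseudocount of 10, the most similar gene of ID2 was EPHA7 and of SMAD6 FAM107B. For MSX2, with 1.48 to 18.6 normalised counts before day 4, depth limits what can be seen.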
